A study of Rattus norvegicus with 23 samples.

Results

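The net change over 36 h of differentiation on a stiff substrate was measured in 6 libraries, out of 23 in the series: the 3 taken from stiff cultures at 36 h and the 3 taken from stiff cultures at 0 h, found by the sample titles. All were of neural stem cells from the hippocampus of adult female rats of WT genotype. Each library is labelled with the same mixed differentiation medium, DMEM-F12 and N2 to which retinoic acid (1 uM) and FBS, fetal bovine serum, (1%) had been added, including those of 0 h. The 0 h and 36 h libraries on a soft substrate, 6 in number, were used to ask whether the change was particular to stiff, and the stiff libraries of 12 h and 24 h, 3 at each time, to follow its course. The soft libraries of 12 h, 2 in number (rounds 1 and 3), and of 24 h, 3 in number, served to read the same course on soft. The handling of the cells before 0 h, and how stiff either substrate was, is not given in the sources that were used. Titles carry a round number from 1 to 3. The labels do not call the rounds separate cultures, so the p-values reflect the spread of these samples alone, and that spread may be technical.

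Neural stem cells of the adult hippocampus renew themselves and can form neurons, astrocytes and oligodendrocytes. Retinoic acid, a vitamin A derivative, acts through nuclear receptors that bind DNA and alter transcription, and it is widely used to push such cells toward differentiation. Serum adds growth factors and lipids, and cells sense the stiffness of what they grow on through their adhesions and the tension of the cytoskeleton.

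The table names genes by Ensembl rat identifiers only, and none of the 32883 (0) could be paired with a name, so genes are described here in groups set by direction, size, abundance and timing. For the same reason the labelled cell type could not be checked against its markers. Total counts were 5222749 to 6482206 in the stiff 0 h libraries and 3536182 to 5203157 in the stiff 36 h libraries, ranges that did not overlap. The tests took in 11857 genes, which held 99.9% of the counts in each of the 6 libraries. In bulk samples a change in the number of cells of a type and a change in RNA per cell cannot be told apart.

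Most of the tested genes differed between 0 h and 36 h on stiff, with rises and falls close to equal in number. Scaling of the libraries places the bulk of genes near no change (median log2 fold change of all tested genes 0.013). The balance of rises and falls is therefore partly set by the scaling. Counts are relative within each library, so a shift in total RNA common to most genes could not be seen. A gene was called where its adjusted p was under 0.05, and 6819 genes (57.5%) were called: 3466 had risen (29.2%) and 3353 had fallen (28.3%). The typical change was below 2-fold. Risen genes had a median log2 fold change of 0.90 (quartiles 0.56 and 1.51, median SE 0.15), which is a 1.86-fold rise. For fallen genes the median size of the log2 fold change was 0.83 (quartiles 0.54 and 1.35, median SE 0.14), or 1.77-fold. The test was edgeR's quasi-likelihood F test with Benjamini-Hochberg adjustment. Tested instead against a change of at least 1.5-fold, 3170 genes were called (26.7%), 1662 of them risen and 1508 fallen.

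**Figure D1:**
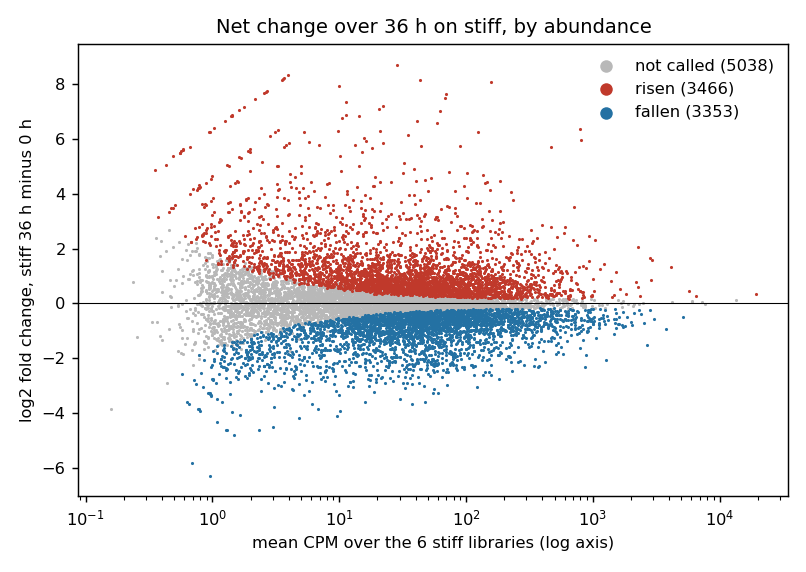
Each point is 1 of 11857 tested genes, placed by its mean level in CPM (counts scaled to a common library total, log axis) over the 6 stiff libraries and by its log2 fold change from 0 h to 36 h. Red points are the 3466 risen genes, blue the 3353 fallen and grey the 5038 not called. The red points reach farther from 0 than the blue, by up to 8.71 for rises and 6.27 for falls on the log2 scale.

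The large changes were mostly rises. Past 2-fold there were 1531 risen and 1324 fallen genes, past 4-fold 546 and 354, past 8-fold 258 and 53, and past 16-fold 133 and 11. Past 32-fold 75 genes had risen and 2 had fallen. Fitted fold changes of genes with very few counts at one time depend on the model, so the counts were repeated on group sums in which a group under 3 counts was set to 3. On that scale 549 genes had risen and 361 had fallen past 4-fold, 249 and 42 past 8-fold, and 49 and 0 past 32-fold. Over the alternative settings tried, the count of genes fallen past 8-fold was 29 to 100 and that of genes risen past 8-fold 181 to 320. The counts past 16- and 32-fold were repeated on the group sums alone, where 111 and 5 genes had risen and fallen past 16-fold.

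**Figure D2:**
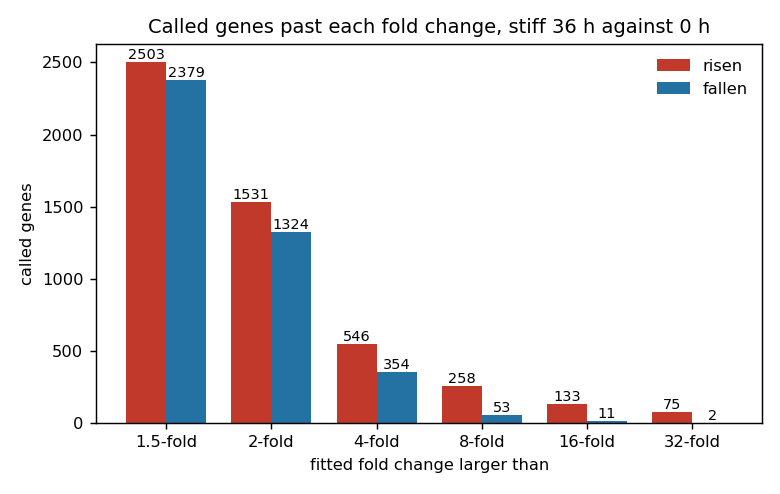
Bars give the number of called genes whose fitted change from 0 h to 36 h on stiff was larger than 1.5-, 2-, 4-, 8-, 16- or 32-fold, risen genes in red and fallen genes in blue. The numbers of risen and fallen genes are close at 1.5-fold (2503 and 2379) and part as the fold grows, to 75 and 2 at 32-fold.

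Strongly risen genes started from low levels. The 546 genes that rose past 4-fold had a median normalised level of 1.45 CPM (counts scaled to a common library total) at 0 h and of 14.1 CPM at 36 h. Among them, the 258 that rose past 8-fold went from a median of 0.489 to 10.5 CPM. The 354 genes that fell past 4-fold started at a median of 22.4 CPM and ended at 4.10 CPM. Among called genes, those with smaller changes were more abundant. Genes risen by less than 2-fold had medians of 39.1 CPM at 0 h and 58.5 CPM at 36 h, and genes fallen by less than 2-fold 73.3 and 48.7 CPM. A small change was harder to call in a scarce gene, where the SE was larger, so the call itself favours this link.

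Rises past 4-fold were not limited to scarce genes. The tested genes were split into 4 bins of equal number by their mean level over the 6 libraries. In the lowest bin, under 7.76 CPM, 269 genes had risen and 144 had fallen past 4-fold. In the highest bin, from 72.7 CPM upward, 91 had risen and 46 had fallen past 4-fold. Falls of any size, by contrast, outnumbered rises in that highest bin, at 1173 against 991, and were fewer in the lowest, at 438 against 634. In the third bin, by ascending level, 72 genes had risen and 86 had fallen past 4-fold, so the excess of large rises did not hold at every level.

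How many genes were called depended on how many counts they had. The share called rose from 36.2% in the lowest bin through 55.8% and 65.1% to 73.0% in the highest, while the median SE of the log2 fold change fell from 0.47 through 0.21 and 0.14 to 0.10. Of the 5038 genes not called, 2238 (44.4%) had a 95% interval that lay within 1.5-fold of no change in both directions. These well measured genes had a median level of 50.1 CPM. A further 1621 had an interval reaching past 2-fold, at a median level of 2.12 CPM, so for them a change of that size could not be judged at this depth. In the lowest bin 0.475% of the genes not called were held within 1.5-fold, against 99.3% in the highest. At the other end, 572 called genes had an interval within 1.5-fold, so their change was measurable and small.

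The changes were also read library by library. The calls rest on these same 6 libraries, so agreement of called genes with their call was favoured and is no independent check. The CPM ranges of the 3 libraries at 0 h and the 3 at 36 h did not overlap in 7394 genes (62.4% of those tested), among them 3290 of the 3466 risen genes and 3190 of the 3353 fallen ones. When each 36 h library was compared with the 0 h library of its round, 3416 risen and 3294 fallen genes moved in the called direction in all 3 rounds, and 73.0% of all tested genes moved one way in all 3. The size of the change was then read in each round. In genes risen 2- to 4-fold the median change was 1.33 in round 1, 1.33 in round 2 and 1.27 in round 3, on the scale of log2 CPM with a prior count of 2. In genes fallen 2- to 4-fold it was -1.35, -1.31 and -1.28. Past 4-fold the medians were 2.61, 2.58 and 2.53 for the risen genes and, with a wider spread, -2.39, -2.08 and -2.19 for the fallen ones. These genes were chosen on the same libraries, so the figures describe the spread between rounds and are no independent check of it. The stiff totals were lower at 36 h than at 0 h as well, and after thinning all libraries to the lowest total in the series the test called 6017 genes.

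By the naming rule, the 2 risen and the 2 fallen genes with the smallest p-values are given by identifier. ENSRNOG00000013794 had the smallest p of all tested genes. It stood at 20.8, 23.3 and 12.6 CPM in the 3 stiff libraries at 0 h and at 1534, 1483 and 1662 CPM at 36 h. Every 36 h library lay far above every 0 h library. The rise was 81.4-fold (log2 fold change 6.35, SE 0.13, adjusted p = 2.91e-27 by edgeR's test). The 3 libraries of 12 h averaged 720 ± 11.1 CPM (SD, n = 3). Those of 24 h averaged 1437 ± 129 CPM and overlapped with those of 36 h, at 1560 ± 92.2 CPM (SD, n = 3 each).

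ENSRNOG00000015736 was close to undetected at 0 h, with 11, 3 and 6 counts, or 1.79, 0.468 and 1.15 CPM. At 36 h it had 1217, 1544 and 1190 counts, or 305, 294 and 337 CPM. This is a rise of 271-fold (log2 fold change 8.08, SE 0.18, adjusted p = 1.02e-26 by edgeR's test), with no overlap between the groups. The SE understates the uncertainty here, since the 0 h level rests on few counts. With 1 library left out, the gene's log2 fold change was 7.68 to 8.61. Its means were 137 ± 5.44 CPM at 12 h, 233 ± 16.4 CPM at 24 h and 312 ± 22.2 CPM at 36 h (SD, n = 3 each), and its lowest 36 h library lay above its highest 24 h library. The step from 24 h to 36 h was not tested.

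Both fallen genes were abundant at 0 h and lost most of their level by 24 h. ENSRNOG00000001514 stood at 218, 222 and 211 CPM at 0 h and at 21.8, 28 and 29.4 CPM at 36 h. The groups did not overlap, and the fall was 8.20-fold (log2 fold change -3.04, SE 0.12, adjusted p = 9.64e-20 by edgeR's test). On the way it passed through 100 ± 10.8 CPM at 12 h and 37.6 ± 5.67 CPM at 24 h (SD, n = 3 each). ENSRNOG00000022657 stood at 249, 246 and 229 CPM at 0 h and at 37.1, 40.4 and 50.4 CPM at 36 h, again with no overlap. It fell 5.69-fold (log2 fold change -2.51, SE 0.11, adjusted p = 7.01e-19 by edgeR's test), by way of 136 ± 13 CPM at 12 h and 58.2 ± 6.41 CPM at 24 h (SD, n = 3 each).

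**Figure D3:**
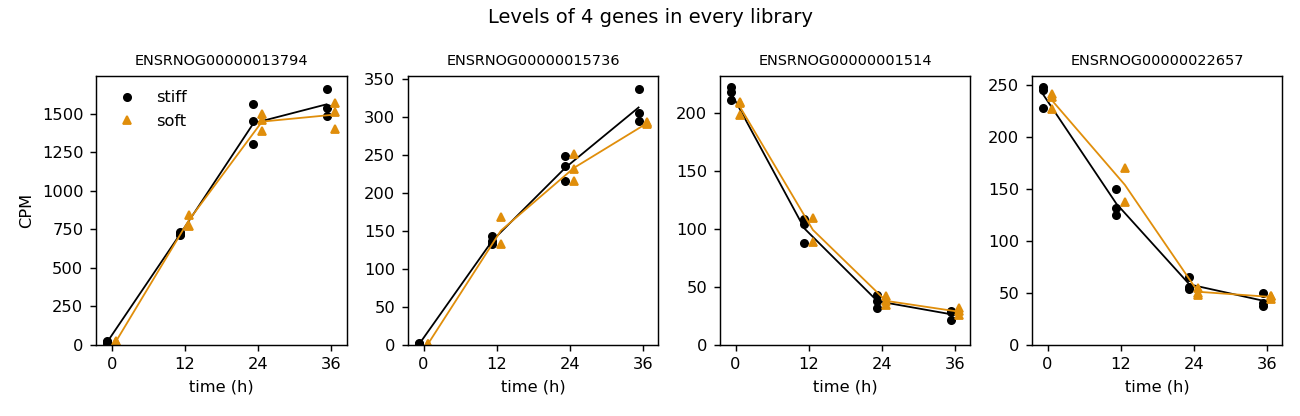
Levels in CPM of 4 genes against time in hours, 1 panel per gene. Black circles are stiff libraries, orange triangles soft libraries, and lines join the means. The first 2 genes climb from under 24 CPM at 0 h to 1483 to 1662 and 294 to 337 CPM on stiff at 36 h, the other 2 fall to between 21.8 and 50.4 CPM, and the soft points run close to the stiff ones.

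Some genes had no counts at one end of the course. No count was seen in any stiff 0 h library for 26 tested genes, and all 26 were called as risen. A gene with no count in that group could pass the filter on low counts only through other groups, so a rise was favoured by the choice and the number called, on stiff or on soft, supports nothing. The 26 gathered a median of 33.5 counts and at most 104 counts over the 3 libraries of 36 h, so they remained scarce. Set against a floor of 3 counts over the group, the steepest of them was 48.3-fold higher at 36 h, and the median of these floored estimates was 15.5-fold. The estimates make no allowance for noise in the 36 h counts. The soft 0 h libraries held at most 3 counts in all for 21 of the 26. On soft 23 of the 26 were called as risen, against 28% of all tested genes. The soft libraries also counted toward the filter, so this is no outside check. In the opposite direction 3 tested genes had no count in any stiff 36 h library, and 2 of them were called as fallen. The larger of these falls was estimated at 8.14-fold with the same floor. These numbers are not a census of such genes, and the falls are subject to the same choice.

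By 12 h the large rises had come further than the large falls. Among genes that changed past 4-fold by 36 h, the median log2 change of the risen ones on stiff was 1.52 by 12 h, then 2.54 by 24 h and 2.90 by 36 h. The fallen ones had medians of -0.41, -1.67 and -2.35. Because many of the risen genes were scarce at 0 h, the course was also read in the members with a mean of at least 10 CPM over the 6 libraries, a limit chosen after the data were seen. There the 255 risen genes had reached 1.49 at 12 h, which is 52.6% of their 36 h median of 2.83. The 193 fallen genes had reached -0.29 at 12 h, which is 12.6% of their 36 h median of -2.28. Across the 3 libraries of 12 h, read on log2 CPM with a prior count of 2, the class median ran from 1.34 to 1.52 for the risen and from -0.38 to -0.24 for the fallen genes.

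At 24 h the medians stood at 86.3% of the 36 h median for these risen genes and 73.5% for the fallen ones. Moderate changes showed a smaller contrast. In genes at 10 CPM or more that changed 2- to 4-fold, the 639 risen genes had reached 33% of their 36 h median at 12 h and the 707 fallen genes 24.7%, with 78.7% for both at 24 h. The changes from 0 h at 12, 24 and 36 h share the 0 h libraries, so they are given side by side and no relation between them was tested. The soft libraries, in which the genes were not chosen and of which there were 2 at 12 h, gave 52.9% at that time for the genes risen past 4-fold and 13.7% for those fallen past 4-fold, each as a share of the 36 h median on soft.

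**Figure D4:**
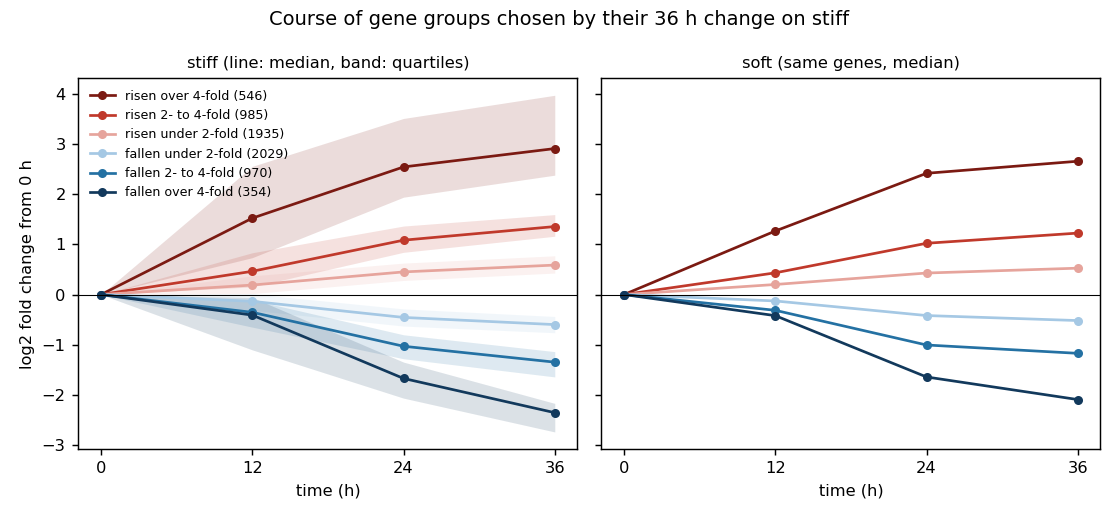
Median log2 fold change from 0 h against time in hours for 6 groups of genes set by direction and size of their 36 h change on stiff, with the number of genes in brackets. The left panel shows stiff, with bands between the quartiles, and the right panel the same genes on soft. The line for genes risen past 4-fold is at 1.52 by 12 h and that for genes fallen past 4-fold at -0.41.

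The strongly changed genes were a small part of the RNA. Genes risen past 4-fold held 0.728 ± 0.025% of all counts on stiff at 0 h and 5.02 ± 0.173% at 36 h (SD, n = 3 each). Genes fallen past 4-fold went from 2.42 ± 0.086% to 0.497 ± 0.060% (SD, n = 3 each). The share moved more in genes with smaller changes. Of the genes that changed 2- to 4-fold, the risen ones went from 3.79 ± 0.101% to 9.91 ± 0.271% and the fallen ones from 9.92 ± 0.233% to 3.96 ± 0.201% (SD, n = 3 each). Genes that changed by less than 2-fold went from 18.7 ± 0.543% to 27 ± 0.463% where risen and from 36.2 ± 0.527% to 24.9 ± 0.587% where fallen (SD, n = 3 each). The same genes on soft, where they were not chosen, gave 0.752 ± 0.015% and 4.77 ± 0.125% for those risen past 4-fold, and 2.30 ± 0.042% and 0.553 ± 0.059% for those fallen past 4-fold (SD, n = 3 each).

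Next, the genes that changed on stiff were read on soft. Of the 3466 risen on stiff, 2850 were also called as risen on soft, which is 82.2% of the stiff list and 85.9% of the 3316 genes risen on soft. Over all tested genes the share called as risen on soft was 28%. Of the 3353 fallen on stiff, 2727 were also called as fallen on soft, which is 81.3% of the stiff list and 87.7% of the 3110 genes fallen on soft, where the share over all tested genes was 26.2%. The share also called on soft grew with the size of the rise on stiff. It was 77.9% for genes risen by less than 2-fold, 86.4% for 2- to 4-fold, 90.1% past 4-fold and 93.4% past 8-fold. For falls the shares were 77.5%, 86.9%, 87.9% and, past 8-fold, 75.5% of 53 genes. A larger change is easier to call, and the direction alone showed no such trend. The same sign was seen on soft in 98.6%, 98.4%, 98.9% and 100% of the risen genes of these classes. For the fallen genes it was 98.1%, 99.0%, 98.9% and 94.3%.

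The remaining 616 risen and 626 fallen genes were called on stiff and not in that direction on soft. They are not shown to be particular to stiff. The soft 36 h libraries had totals of 3372308, 6358462 and 2573665 counts, against 3536182 to 5203157 on stiff. The effect of depth on these calls was not tested. Their changes were small, with median log2 fold changes of 0.64 on stiff and 0.26 on soft for the risen and of -0.60 and -0.25 for the fallen, at median levels of 17.3 and 21 CPM. Choosing genes on one substrate can enlarge their change there, and how much of the gap this makes up was not tested. The 546 genes risen past 4-fold on stiff had a median of 2.90 on stiff and 2.65 on soft. Chosen the opposite way, the 536 genes risen past 4-fold on soft had a median of 2.82 on soft and 2.78 on stiff, and 495 of them were called as risen on stiff.

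**Figure D5:**
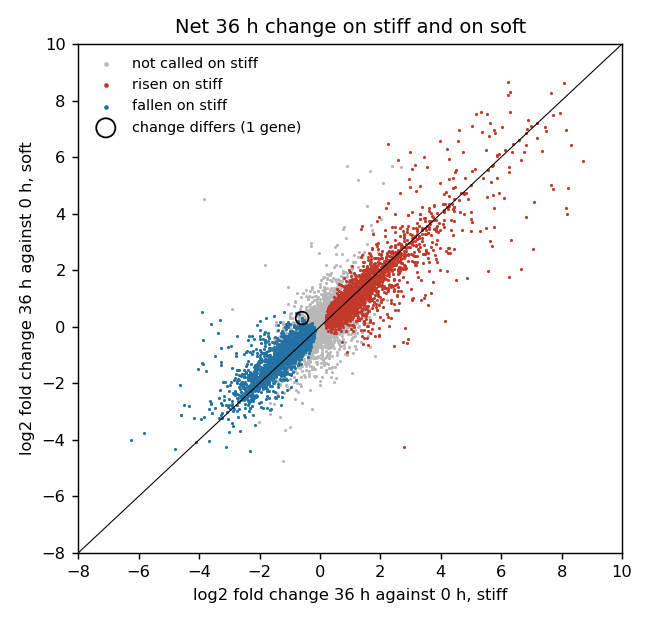
Each point is a tested gene, placed by its log2 fold change from 0 h to 36 h on stiff (horizontal) and on soft (vertical), with the line of equal change. Red and blue mark genes risen and fallen on stiff, grey those not called there, and the circle the 1 gene whose change differed between substrates. Red and blue points spread along the line in both directions.

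The difference between the changes on stiff and on soft was tested gene by gene, which asks whether the net 36 h change differed between the substrates. The libraries of 12 h and 24 h had no part in this contrast. In this test 1 gene of 11857 was called (0.00843%), while 697 had an unadjusted p under 0.05 (chance alone gives about 593), and DESeq2 called 2. The 95% interval of the difference lay within 2-fold for 8084 genes (68.2%) and within 1.5-fold for 4710 (39.7%). Among the 6819 genes called on stiff, 5176 (75.9%) were held within 2-fold. The strongly changed genes were less well bounded, since the interval lay within 2-fold for 297 of the 900 that changed past 4-fold. For the others a 2-fold difference between substrates was not bounded at this depth.

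The 4 genes given by identifier were among those with no call for a difference. The change of ENSRNOG00000013794 on stiff exceeded that on soft by 0.16 (95% interval -0.21 to 0.52, log2 scale), while for ENSRNOG00000001514 the difference was -0.18 (-0.54 to 0.18) and for ENSRNOG00000022657 -0.15 (-0.46 to 0.17). For these a 2-fold difference lay outside the interval. For ENSRNOG00000015736, which had few counts at 0 h, the difference was -0.54 with an interval from -1.55 to 0.47.

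The gene that was called fell on stiff and rose on soft. On stiff it stood at 85.3, 98.8 and 86.0 CPM at 0 h and at 54.4, 63.8 and 60.6 CPM at 36 h, with no overlap, and its log2 fold change was -0.59 (SE 0.11). On soft it stood at 73.3, 96.8 and 87.2 CPM at 0 h and at 102, 115 and 99.7 CPM at 36 h, again with no overlap, and its log2 fold change was 0.30 (SE 0.11). The difference was -0.90 (SE 0.15, adjusted p = 0.0195 by edgeR's test, and 0.000243 to 0.155 over the alternatives that test against no change). At 24 h its level was 63.1 ± 2.14 CPM on stiff and 64.5 ± 7.71 CPM on soft (SD, n = 3 each), with overlapping libraries. The call was lost without soft 0 h replicate 1 or 3, soft 36 h replicate 2, stiff 0 h replicate 2 or stiff 36 h replicate 1 or 3, at adjusted p from 0.0531 to 0.155 by edgeR's test, with the difference from -0.91 to -0.79. A second gene was called in opposite directions on the substrates, but it had at most 8 counts in any of the 12 libraries and was not called for the difference (adjusted p = 0.618).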

How the data were processed

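Total RNA was column-purified with removal of genomic DNA and sequenced as QuantSeq FWD libraries, per the labels' protocols. Such libraries tag the 3' end of polyadenylated transcripts, so counts depend little on transcript length. The submitters' processing notes name the build rn6 and the tools FastQC, HTSeq and HISAT2 (2.1.0). Annotation release, strand setting and duplicate handling were not stated in the sources used, and overlapping or near-identical genes may share reads. The authors deposited raw whole-number counts per gene.

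All 23 libraries were fitted together as 8 group means with edgeR 4.0.16 (R 4.3.3): TMM factors, filterByExpr (minimum count 10, minimum total 15), the quasi-likelihood F test and Benjamini-Hochberg adjustment over 11857 genes. Contrasts were stiff 36 h minus 0 h, and that change minus the same change on soft. Standard errors and 95% intervals follow from the F statistic and may be too small where a large change rests on few counts. Levels are CPM on TMM-scaled totals. The test against 1.5-fold used glmTreat.

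Within the 2 groups each pair of libraries differed by more than counting noise, with 3.10 to 6.81 as chi-square per degree of freedom in genes of 20 or more counts, so no pair was treated as repeat deposits of 1 library. This does not show that they came from separate cultures. The comparison and all groups of genes were chosen with earlier results of these data known. The 25 gene lists and the parts of the naming rule that need names could not be used, so the rule's other provision, the 2 risen and 2 fallen identifiers with the smallest p, was applied. Alternatives were other scalings and filters, DESeq2 1.42.0, a block for round, fewer groups in the fit, thinning and leaving out each library. Figures were drawn with matplotlib 3.10.9.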

Additional observations from a re-analysis of the deposited data

Results flagged for a closer look

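For 1 gene the change from 0 h to 36 h differed between the substrates by a test of the difference itself. The log2 change on stiff minus that on soft was -0.90 (SE 0.15, adjusted p = 0.0195 by edgeR's test). It fell on stiff in all 3 libraries and rose on soft in all 3, measured against the highest or lowest 0 h library of the same substrate.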

How the results depend on the processing

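The count of genes changed on stiff, 6819, was 6017 to 7029 over the alternatives that test against no change. It was 6176 to 6486 when 1 of the 6 libraries was left out. The share risen stayed between 49.4% and 52.3% under these alternatives. All the scalings tried were relative to the counts of each library, so this share does not test the balance of rises and falls. Tested against 1.5-fold the count of genes changed was 3170, with 1662 risen and 1508 fallen, by construction of that test. The 4 genes given by identifier kept their direction and call in all 17 alternatives each. Genes fallen past 8-fold, 53 in number, were 100 with no filter on low counts, 29 with at least 5 CPM in 3 libraries, 35 with only the compared groups and 33 after thinning; the cause was not tested. The fold counts on group sums with a floor of 3 counts were added after the data were seen. The count of genes whose change differed between substrates was 1, and 23 with no filter, 2 with only the compared groups, 2 with DESeq2, 0 after thinning and 0 against 1.5-fold. It was 0 to 1 when 1 library was left out; the cause was not tested. With the round as a replicate block 7029 genes changed on stiff and 1 differed between substrates. Same-numbered stiff libraries deviated together only weakly (r across genes 0.0234, 0.0274 and 0.0257), although each stiff library correlated best with its own number. On soft the same-numbered values were 0.0475, -0.0497 and -0.0354. The largest there, 0.0988, joined round 3 at 0 h to round 2 at 36 h. No source states that the rounds are separate cultures, so the numbers were not taken as pairs in the main fit. The alternatives for gene lists were not run, since no identifier could be named. Depth limits the genes under 7.76 CPM, where the median SE was 0.47.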

Other observations

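Measures of how widely counts were spread over genes did not all move one way on stiff. In 1 random thinning of the 6 libraries to 3536182 counts each, 13288 to 13578 genes had at least 1 count at 0 h and 13663 to 13750 at 36 h. The number of most abundant genes that together held 50% of the counts was 631 to 636 at 0 h and 639 to 679 at 36 h. Neither pair of ranges overlapped, and with 3 libraries against 3 an exact two-sided permutation test cannot give a p below 0.1. As deposited, with fewer counts at 36 h, the libraries had 13887 to 14076 detected genes at 0 h and 13667 to 14167 at 36 h, ranges that overlapped. The single most abundant gene of each library held 1.52% to 2.01% of the counts at 0 h and 1.98% to 2.35% at 36 h, also with overlap, and the 100 most abundant genes held 22.9% to 23.4% at 0 h and 23.1% to 24.1% at 36 h, again with overlap. Libraries of the same time were slightly less alike at 0 h than at 36 h, a gap that was not tested. In genes at 10 CPM or more the median SD of log2 CPM over 3 libraries was 0.14 at 0 h and 0.13 at 36 h, or 0.15 and 0.13 after thinning. Chi-square per degree of freedom was 4.97 to 6.81 between pairs of 0 h libraries and 3.10 to 4.26 between pairs of 36 h libraries. It was taken on counts as deposited, with higher totals at 0 h.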
